A study of Homo sapiens with 36 samples.

Results

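The enzymes of de novo purine synthesis were followed through 4 comparisons of drug-treated cancer cell lines. The members are 10 gene symbols fixed by name: PPAT, GART, PFAS, PAICS, ADSL, ATIC, PRPS1, PRPS2, MTHFD1 and APRT. All 10 were found among the 11828 genes of the authors' deposited table. The name fits 6 of them in the strict sense, since PPAT, GART, PFAS, PAICS, ADSL and ATIC catalyse the pathway itself, while PRPS1, PRPS2 and MTHFD1 supply its substrates and APRT belongs to salvage.

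Purine synthesis builds the base step by step on a ribose phosphate. PRPS1 and PRPS2 make the activated sugar phosphoribosyl pyrophosphate, PPAT commits it to the pathway, and GART, PFAS, PAICS, ADSL and ATIC carry the chain to inosine monophosphate, from which AMP and GMP are made. MTHFD1, a cytosolic folate enzyme, supplies the one-carbon units that GART and ATIC consume, and APRT recovers free adenine. Proliferating tumour cells depend on this route for nucleotides, and thiopurine nucleotides are known in other settings to inhibit PPAT.

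The table comes from a mechanism experiment of 16 RNA sequencing libraries in 2 cell lines, each line under 4 treatments for 3 days with 2 libraries apiece. A375 is a melanoma line that carries a BRAF mutation, and HCC827 is a lung adenocarcinoma line that carries an EGFR mutation. Cells received 6-thio-dG together with the targeted drug (called the combination), 6-thio-dG alone, the targeted drug alone, or DMSO. 6-thio-dG is a thiolated guanine nucleoside that telomerase can incorporate, and the targeted drugs were the BRAF inhibitor PLX4720 in A375 and the EGFR inhibitor osimertinib in HCC827. The authors compared 6-thio-dG with an arm that the header calls RNA, read here as DMSO and called the reference, and the combination with an arm that it calls TKI1, read here as the targeted drug. Neither reading is stated in the header. TKI1 could also be the name of 1 library, replicate 1 of the targeted drug, and the errors of the combination comparisons would then rest on 1 library on that side.

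Fold changes and p-values are all that is given, with 0 columns of values per library, so no level, replicate spread or library depth can be stated. Errors are those implied by a fold change and its p-value when the p-value is read as a two-sided normal test. Nothing in the labels says that the 2 libraries of a group came from separate cultures, so the p-values measure the spread between these libraries, which may be technical. A gene was called when the authors' adjusted p was under 0.05, and "rose" and "fell" are used of called genes. Identity of the lines could be read only from which genes the table lists: all 7 epithelial markers looked for are listed and 2 of 7 melanoma markers, and in the absence of levels neither number tests a line.

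**Figure D1:**
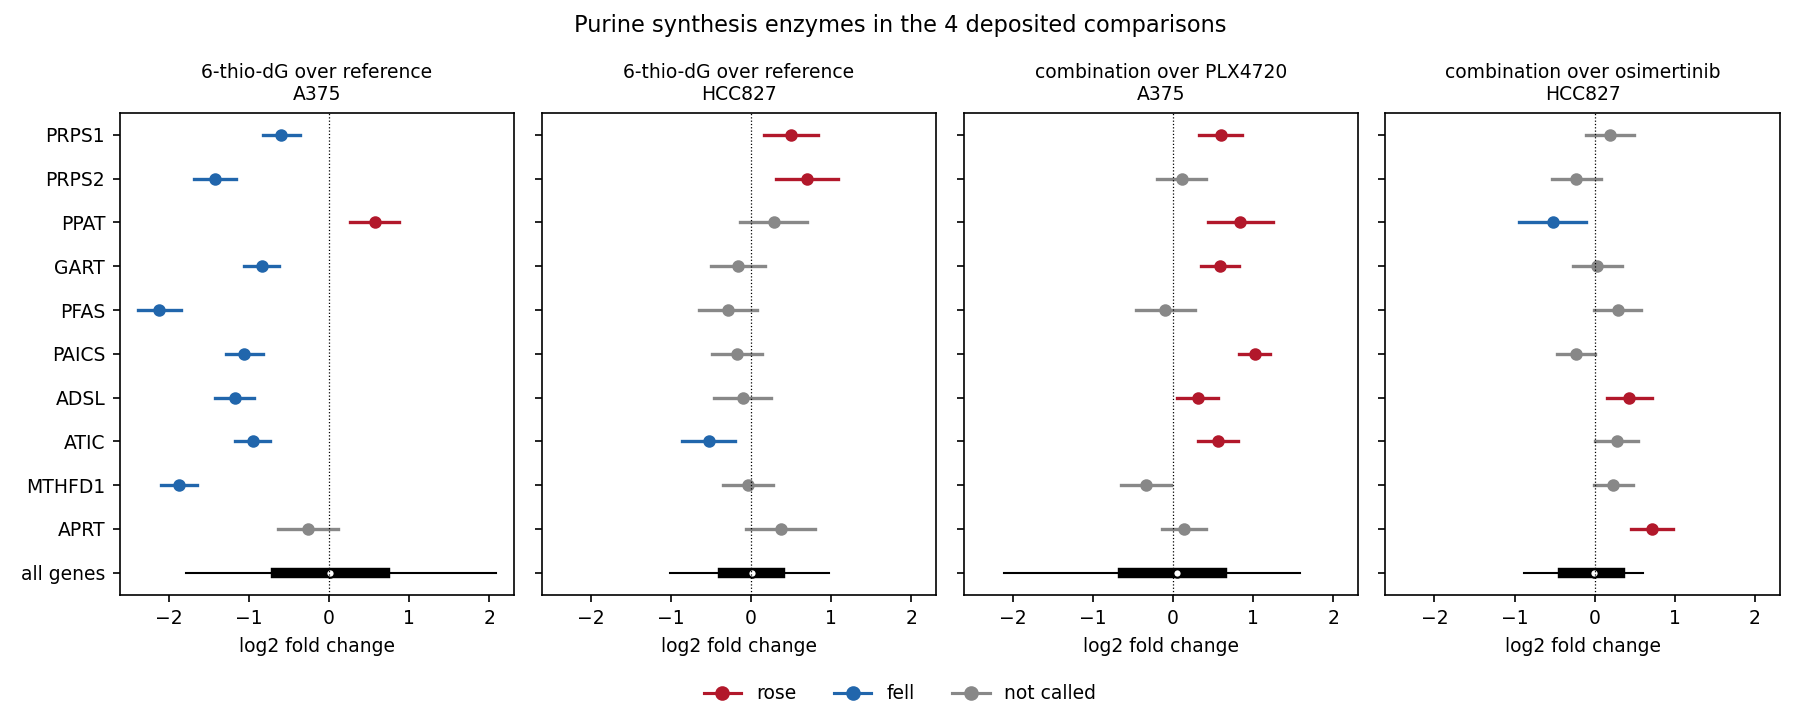
Log2 fold change (x axis) of the 10 enzymes (rows) in each comparison, with bars for the 95% interval that the p-value implies; in the bottom row the thick bar spans the 25th to the 75th percentile of all genes and the thin bar the 5th to the 95th percentile. In A375 after 6-thio-dG 8 of the 10 lie below 0 and are called, while in the A375 combination 6 lie above 0 and are called.

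6-thio-dG alone in A375 lowered most of the pathway. Of the 10 genes 8 fell and 1 rose, where 33.7% of all genes fell and 31.3% rose (65.0% either way). The median log2 fold change of the 10 was -1.0 beside 0.01 over all genes. Among the falls 5 reached at least 2-fold, and they were spread over substrate supply and the pathway proper. The share of all genes that fell this far was not computed, and the 5th percentile of all genes was -1.78. APRT, the salvage enzyme, did not pass. Of the markers, 2 of 7 epithelial genes fell and 0 rose, and 1 of 2 melanoma genes rose; their part in the result was not tested.

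The deepest fall was that of PFAS, which converts the formylated intermediate with glutamine as nitrogen donor, at -2.12 with an adjusted p of 7.76e-51 in the authors' deposited table. Its implied standard error was 0.14 and the ratio corresponds to 23.1% of the reference. MTHFD1 stood at -1.87 with an adjusted p of 7.54e-60 in the authors' deposited table, or 27.3% of the reference. Of all genes in the table, 3.38% lay below PFAS and 4.47% below MTHFD1.

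The other enzymes of the chain after the committed step moved within a narrow band. The authors' deposited table gives -1.18 for ADSL, the lyase that also works in the AMP branch. It gives -1.06 for PAICS, a bifunctional carboxylase and synthetase, again in the authors' deposited table. ATIC, which closes the ring, was at -0.95 and GART, a trifunctional enzyme, at -0.84 in the authors' deposited table. With implied standard errors of 0.12, 0.12, 0.11 and 0.11 in that order, the 95% intervals of neighbours in this order overlap.

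The phosphoribosyl pyrophosphate synthetases fell unequally. PRPS2 was at -1.42 (95% interval -1.68 to -1.16) and PRPS1 at -0.60 (-0.83 to -0.36) in the authors' deposited table. Their intervals do not meet. The pair are close paralogues, and PRPS1 has 2 processed pseudogenes by name in GENCODE. How the authors' counting shared reads among them could change both values, and it is not given in the sources used here. Processed pseudogenes by name are also listed for PAICS (7), PPAT (2) and MTHFD1 (1), and the same limit holds for their values.

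PPAT, the committed and feedback-regulated amidotransferase, was the exception. It rose, at 0.57 with an adjusted p of 6.0e-04 in the authors' deposited table, beside -1.06 for PAICS, its head-to-head neighbour. Fold changes in this comparison ran lower the more GC-rich the exons were (Spearman's rho -0.37 across 11796 genes, a description), and PPAT has the most AT-rich exons of the 10. With that trend removed PPAT stood at -0.29 with an adjusted p of 0.096, so neither its rise nor its sign held, while the 8 falls did. Adjusted p-values after trend removal, here and further on, come from the implied errors. APRT was at -0.26 with an adjusted p of 0.24 in the authors' deposited table.

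PPAT and PAICS are divergent neighbours on chromosome 4, PPAT on the minus strand and PAICS on the plus strand. PAICS has 3 RefSeq windows, and the start nearest beyond that of PPAT was used here. The stretch between their RefSeq starts is printed because a single promoter region faces both genes, whose called changes went in opposite directions here. It lies at chr4:56435616-56435751 (GRCh38.p14, plus strand, 136 bases, from the RefSeq promoter table), and PPAT is read leftward from it and PAICS rightward.
PPAT and PAICS, between the starts: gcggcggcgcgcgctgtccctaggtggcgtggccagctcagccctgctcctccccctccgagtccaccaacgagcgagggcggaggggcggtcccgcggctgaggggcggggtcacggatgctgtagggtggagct
An E-box, the CACGTG site that MYC and related factors can bind, stands just inside the PAICS transcript from that start, in capitals below (chr4:56435788-56435801, plus strand).
PAICS E-box: gctgCACGTGgaaa
The same site is counted in the PPAT window, at position -182 from its start, and in this PAICS window, at base 41 of the transcript. The other PAICS windows hold no E-box.

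Opposite movement of such neighbours was counted over the table. Among 971 head-to-head pairs of protein-coding genes in the table, with starts at most 1000 bases apart in GENCODE 29, both genes were called in 407 after 6-thio-dG in A375, and in 150 of these (36.9%) the pair moved in opposite directions. The share was 25.0% of 72 pairs after 6-thio-dG in HCC827. In the combination comparisons 38.2% of 356 such pairs in A375 and 5.5% of 145 in HCC827 did so. PPAT and PAICS both rose in the A375 combination.

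6-thio-dG alone in HCC827 left most of the pathway below the threshold. Of the 10 genes 2 rose and 1 fell, where 14.8% of all genes rose and 14.4% fell, and the median was -0.07 beside 0.01 over all genes. The called share of the 10 was close to that of all genes (29.2%). Both risers were the phosphoribosyl pyrophosphate synthetases, PRPS2 at 0.70 (adjusted p = 0.0034) and PRPS1 at 0.50 (adjusted p = 0.020) per the authors' deposited table, which are the supply step of the pathway. ATIC fell, at -0.53 with an adjusted p of 0.010 in the authors' deposited table. Among 7 epithelial markers 2 rose and 2 fell, and 0 of the 2 melanoma markers were called.

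None of the other 7 members passed in HCC827. PFAS was at -0.29, PAICS at -0.18, GART at -0.16, ADSL at -0.10 and MTHFD1 at -0.04 in the authors' deposited table. PPAT and APRT lay on the positive side, at 0.28 and 0.37 in the authors' deposited table. Their implied standard errors ran from 0.16 to 0.22, beside 0.11 to 0.19 for the 10 genes in A375, and a change as large as the A375 fall of PFAS or MTHFD1 lies outside their 95% intervals (-0.65 to 0.08 for PFAS and -0.35 to 0.27 for MTHFD1). When the length and span of genes were taken out along with GC content, PRPS1 was at 0.40 with an adjusted p of 0.069, and PFAS passed as a fall at -0.48 with an adjusted p of 0.038.

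Adding 6-thio-dG to PLX4720 in A375 raised members of the pathway. Of the 10 genes 6 rose and 0 fell, where 31.2% of all genes rose and 29.3% fell (60.5% either way), and the median was 0.44 beside 0.06 over all genes. PFAS, PRPS2, MTHFD1 and APRT did not pass, and 1 of the 6 rises reached 2-fold. Cell type markers were counted in the same comparison. Of 7 epithelial markers 3 rose, 0 fell and 4 were not called, where 60.5% of all genes were called. The risers were the keratins KRT18 at 2.12 and KRT8 at 0.42 and the claudin CLDN4 at 1.00 per the authors' deposited table. MITF, 1 of the 2 melanoma markers listed, fell, at -1.95 in the authors' deposited table. The part of these markers in the result was not tested. What PLX4720 by itself did to these genes was not analysed here, so whether the combination stood above or below DMSO is not known.

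PAICS led the rises at 1.02 (95% interval 0.82 to 1.22, adjusted p = 1.63e-22) in the authors' deposited table. PPAT followed at 0.84 (0.44 to 1.24) in the authors' deposited table. Thus both genes of the divergent pair were higher in the combination than under PLX4720 alone.

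PRPS1 was at 0.60, GART at 0.59 and ATIC at 0.57 in the authors' deposited table, each with an adjusted p of 3.5e-05 or less. ADSL rose least, at 0.31 with an adjusted p of 0.034 in the authors' deposited table. The genes that did not pass were PRPS2 at 0.11, APRT at 0.14, PFAS at -0.09 and MTHFD1 at -0.34 (adjusted p = 0.062) per the authors' deposited table. The 2 genes with the deepest falls under 6-thio-dG alone, PFAS and MTHFD1, are thus the 2 with negative values here.

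Several of these calls changed when trends over all genes were removed. With the GC trend removed ADSL was at 0.12 with an adjusted p of 0.42. MTHFD1 then passed as a fall at -0.47 and APRT as a rise at 0.70, with adjusted p of 0.0071 and 2.45e-06. With exonic length and span removed as well, GART, PAICS and APRT rose (3 of the 10) and PRPS2 fell, at -0.41 with an adjusted p of 0.016. PPAT at 0.42, ATIC at 0.27, ADSL at 0.15 and PRPS1 at 0.12 no longer passed there, with adjusted p of 0.070, 0.051, 0.32 and 0.47.

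Adding 6-thio-dG to osimertinib in HCC827 changed few of these genes. Of the 10 genes 2 rose and 1 fell, where 17.3% of all genes rose and 17.9% fell, again a called share near that of all genes (35.2%), and the median was 0.21 beside -0.0039 over all genes. Among 7 epithelial markers 2 rose and 1 fell, and 1 of the 2 melanoma markers fell. APRT rose the most, at 0.71 with an adjusted p of 8.56e-06 in the authors' deposited table, and 98.0% of genes lay below it. ADSL rose, at 0.43 (adjusted p = 0.012), and PPAT fell, at -0.52 (adjusted p = 0.042), per the authors' deposited table.

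The other 7 genes ran from -0.23 to 0.28, among them PAICS and PRPS2 at -0.23, GART at 0.03 and PFAS at 0.28 in the authors' deposited table. This comparison carried the steepest dependence on composition, with Spearman's rho of 0.73 between GC content and fold change across 11796 genes, given as a description. Removing that trend left ADSL as the 1 called gene, at 0.64 with an adjusted p of 5.32e-04. APRT then stood at 0.28 and PPAT at 0.14, with adjusted p of 0.22 and 0.79. With exonic length and span removed as well, MTHFD1 also passed as a rise, at 0.37 with an adjusted p of 0.0425.

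**Figure D2:**
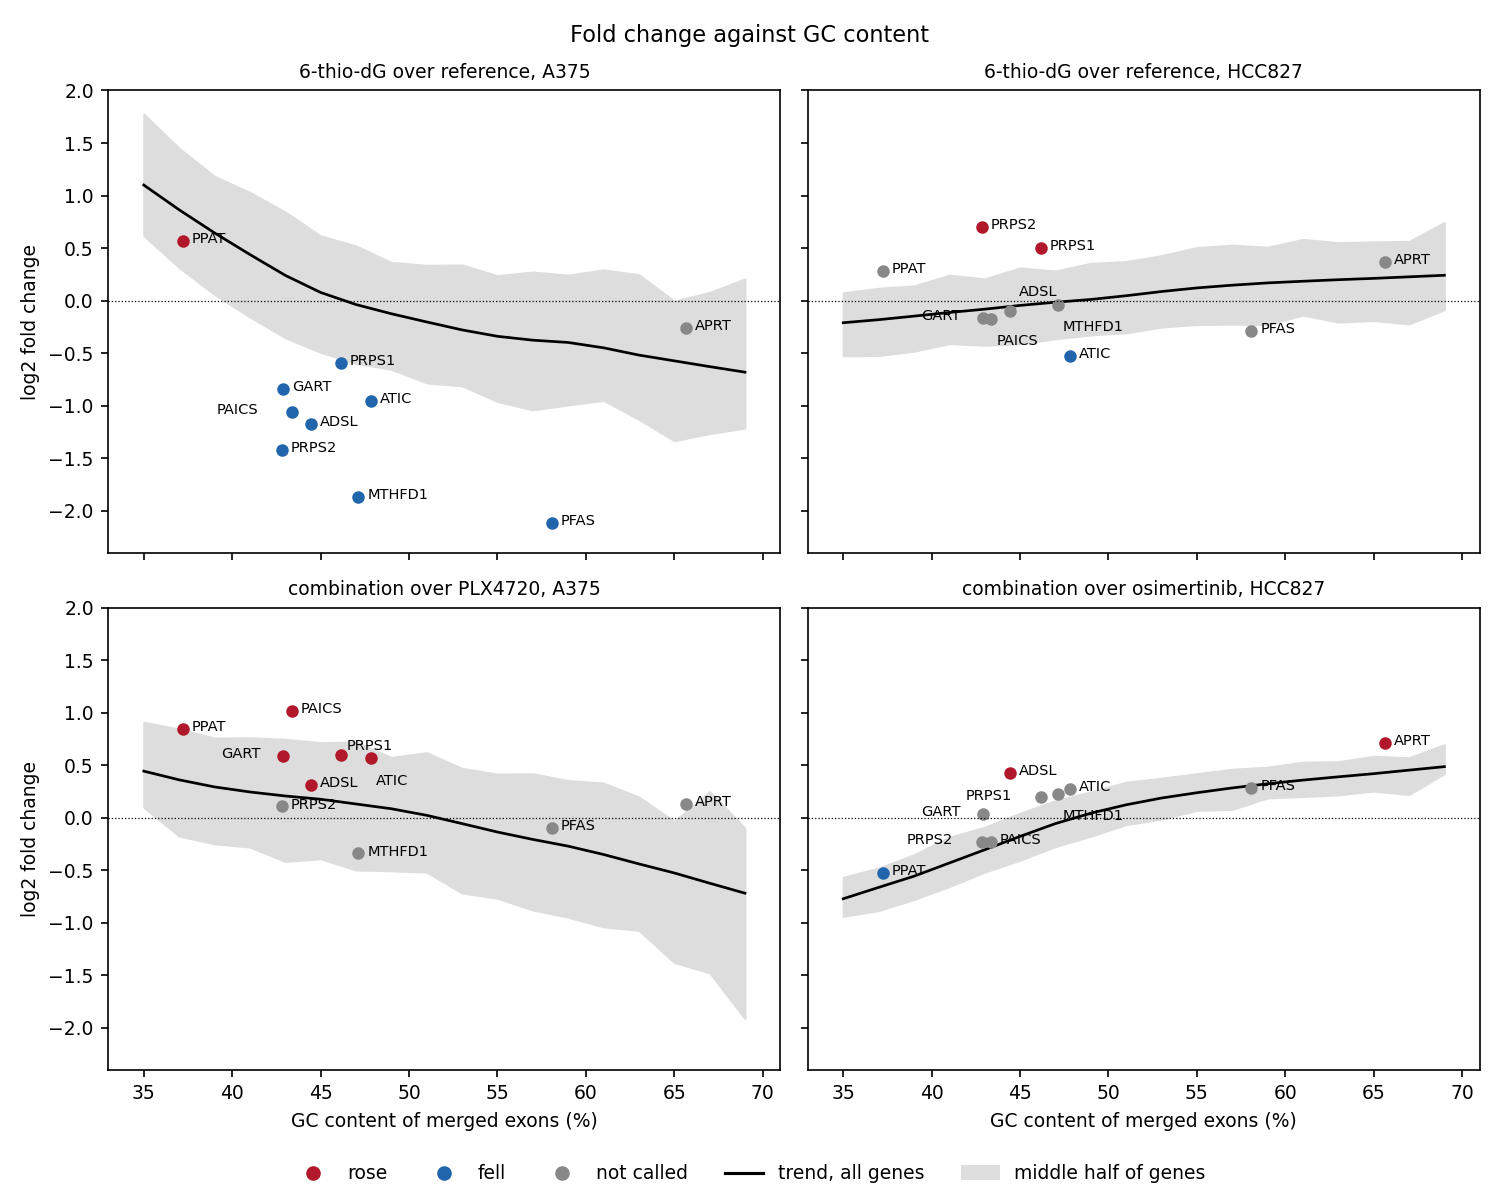
Log2 fold change (y axis) of the 10 enzymes against the GC content of their merged exons in percent (x axis), with the trend over all genes as a line and the 25th to the 75th percentile of genes in bins of GC content as a grey band. PPAT at 37.2% and APRT at 65.7% sit at the ends of the range; in the HCC827 combination PPAT lies near the line and APRT above the band, while PFAS and MTHFD1 lie far below it in A375 after 6-thio-dG.

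The exons of the 10 genes differ widely in composition, as the plot of fold change against GC content shows. PPAT, at 37.2% GC, has 4.37% of matched genes below it, and APRT, at 65.7%, is above 97.6%. PFAS is at 58.1% and the other 7 genes lie between 42.8% and 47.8%, below the gene median of 48.3%. At PPAT's composition the trend alone gave 0.86 after 6-thio-dG in A375 and -0.66 in the HCC827 combination, as against PPAT's own 0.57 and -0.52 in the authors' deposited table. At APRT's composition it gave 0.43 in the HCC827 combination, against 0.71 for APRT in the authors' deposited table. The part of library preparation or sequencing in this trend was not tested.

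**Figure D3:**
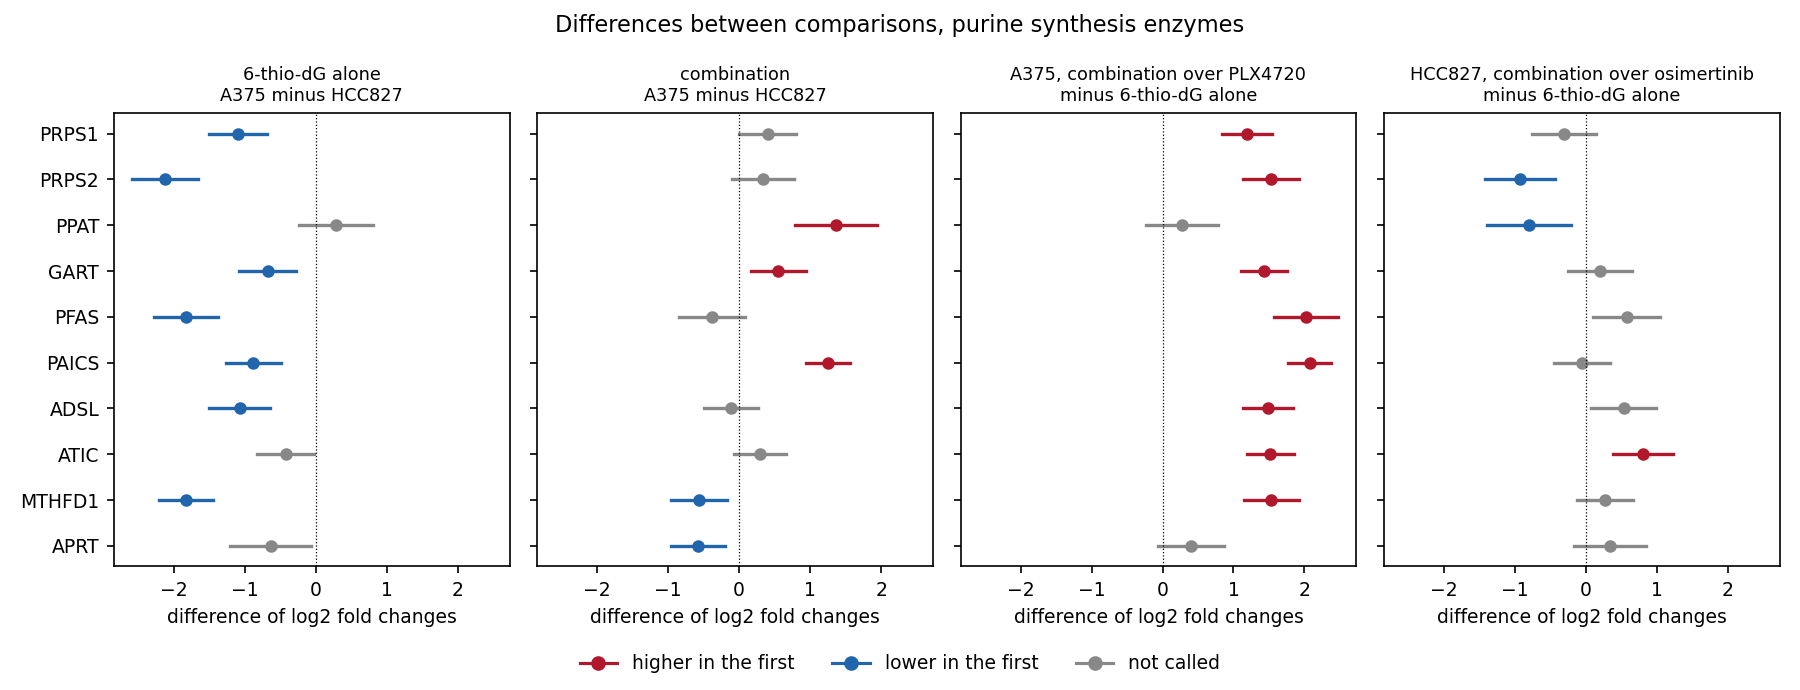
Difference between 2 deposited log2 fold changes (x axis) for the 10 enzymes (rows), with 95% intervals from the implied standard errors; red and blue mark differences with an adjusted p under 0.05, higher or lower in the comparison named first. In the third panel 8 genes lie at 1.19 or above, and PPAT and APRT lie nearer 0.

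The difference between the lines under 6-thio-dG alone was tested gene by gene with a two-sided z test on the implied errors, adjusted by Benjamini-Hochberg over 11821 genes. With no values per library an exact test could not be made, and with 2 libraries per group the normal reading is an approximation. Differences between lines are A375 minus HCC827. For 7 of the 10 genes the fold change was lower in A375, a direction found for 28.9% of all genes, and it was higher for 0 of the 10 (26.2% of all genes, 55.1% either way). PRPS2 showed the widest gap, -1.42 in A375 and 0.70 in HCC827 in the authors' deposited table. The difference was -2.12 (95% interval -2.59 to -1.65), with an adjusted p of 1.6e-17 by the z test. MTHFD1 and PFAS each differed by -1.83, with adjusted p of 1.82e-19 and 5.16e-14. PRPS1 and PRPS2 were the members that were called in both lines in opposite directions, lower than the reference in A375 and higher in HCC827.

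PPAT, ATIC and APRT did not pass this test, with differences of 0.29 (-0.23 to 0.80), -0.43 (-0.82 to -0.03) and -0.63 (-1.20 to -0.06) and adjusted p of 0.36, 0.064 and 0.052. These intervals leave room for sizeable differences. With the GC trend removed PPAT's difference turned to -0.75 with an adjusted p of 0.012.

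For the combination, 3 of the 10 genes were higher in A375 than in HCC827 and 2 were lower, beside 28.9% and 27.5% of 11812 genes (56.5% either way). By the same z test PPAT differed by 1.36 (95% interval 0.78 to 1.94), PAICS by 1.25 and GART by 0.55, with adjusted p of 1.69e-05, 4.83e-14 and 0.011. MTHFD1 differed by -0.57 and APRT by -0.58, with adjusted p of 0.011 and 0.0071. With the GC trend removed PAICS was still higher and MTHFD1 lower in A375, and ADSL passed as lower at -0.52. PPAT at 0.35 and GART at 0.036 then missed the threshold, with adjusted p of 0.36 and 0.90, and APRT turned to 0.42 with an adjusted p of 0.069.

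Within A375, the fold change of the combination over PLX4720 was set against that of 6-thio-dG alone. The z test, here and within HCC827, takes the 2 contrasts as sharing no libraries, which the header does not state. The combination's value was higher for 8 of the 10 genes and lower for 0, beside 28.5% and 24.1% of 11805 genes (52.6% either way). The widest gaps by the z test were those of PAICS, 2.08 (95% interval 1.77 to 2.38), and PFAS, 2.02 (1.57 to 2.48), with adjusted p of 9.68e-39 and 8.72e-17. The other 6 ran from 1.19 for PRPS1 to 1.53 for MTHFD1 and PRPS2. PPAT (0.27, -0.23 to 0.78) and APRT (0.40, -0.07 to 0.87) did not pass, though PPAT did with the GC trend removed, at 0.77. GART, PAICS, ADSL, ATIC and PRPS1 were called in both contrasts and with opposite signs. The rise over PLX4720 no longer passed for ADSL with the GC trend removed, nor for ATIC and PRPS1 with length and span removed too.

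Within HCC827 the same subtraction gave 1 higher gene and 2 lower ones, beside 10.8% and 11.4% of 11828 genes (22.3% either way). ATIC was higher by 0.80 with an adjusted p of 0.0025, having been at 0.27 in the combination and at -0.53 after 6-thio-dG alone in the authors' deposited table. PRPS2 differed by -0.93 and PPAT by -0.81, with adjusted p of 0.0030 and 0.037. With the GC trend removed PPAT's difference was -0.33 and no longer passed, and ADSL passed at 0.69, with adjusted p of 0.50 and 0.023.

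An E-box was found in a window from 250 bases before to 50 after a RefSeq start for PPAT, PAICS, ATIC and MTHFD1, which are 4 of the 9 members with a window. The search read CACGTG, which is the same on both strands. Over the table, 12.8% of 9581 genes with a window hold one. The upstream part of the ATIC and MTHFD1 windows (GRCh38.p14, from the RefSeq promoter table) is printed to show where the site lies in the other E-box genes that fell in A375. Capitals mark CACGTG.
ATIC, chr2:215311809-215312058, plus strand: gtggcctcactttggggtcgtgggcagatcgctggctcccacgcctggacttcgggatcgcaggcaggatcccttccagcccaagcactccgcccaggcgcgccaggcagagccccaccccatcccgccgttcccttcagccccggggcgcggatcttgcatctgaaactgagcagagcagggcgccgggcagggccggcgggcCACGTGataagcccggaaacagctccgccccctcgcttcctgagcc
MTHFD1, chr14:64388103-64388352, plus strand: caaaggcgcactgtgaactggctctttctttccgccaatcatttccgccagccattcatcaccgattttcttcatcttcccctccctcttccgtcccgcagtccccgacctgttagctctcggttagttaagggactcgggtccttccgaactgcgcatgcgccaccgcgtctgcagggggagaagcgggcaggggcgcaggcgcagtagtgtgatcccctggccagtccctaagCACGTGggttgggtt
The ATIC site starts at position -46 and that of MTHFD1 at -15, and ATIC has a further E-box at base 30 of its transcript. An E2F motif (TTTNNCGC, either strand) was found for GART and PRPS2, beside 13.3% of genes, the NRF1 palindrome for MTHFD1, at position -97 and clear of the E-box, beside 2.76%, and the ATF4 composite TGATGNAA for 0 of the 9, beside 2.67%. A match is a description of letters and no evidence of binding. After 6-thio-dG alone in A375, MTHFD1 (-1.87), PAICS (-1.06) and ATIC (-0.95) fell and PPAT rose (0.57) in the authors' deposited table. With the GC trend removed PPAT stood at -0.29 and did not pass, while the other E-box genes still fell. PPAT's site is also the one counted for PAICS. In the A375 combination PAICS (1.02), PPAT (0.84) and ATIC (0.57) rose in the authors' deposited table. MTHFD1 (-0.34) did not pass there. The part of the E-box in these changes was not tested.

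Several members share ground with other genes, and a count that ignores strand cannot separate overlapping reads; whether the authors' counting used strand is not given in the sources used here. GART overlaps SON, which encodes a splicing cofactor, head to head on chromosome 21. Both fell after 6-thio-dG in A375, GART at -0.84 and SON at -0.74, while in the A375 combination GART rose (0.59) and SON fell (-0.32) in the authors' deposited table. PFAS overlaps the start of CTC1, a telomere-protein gene on chromosome 17, which was at 0.17 in A375 after 6-thio-dG (adjusted p = 0.43) per the authors' deposited table. MTHFD1 overlaps ZBTB25 on the opposite strand, which rose after 6-thio-dG in A375 at 1.63 in the authors' deposited table. ADSL overlaps SGSM3 on the same strand. SGSM3 fell with ADSL after 6-thio-dG in A375, at -0.61, and fell in the A375 combination at -1.86, where ADSL rose, per the authors' deposited table.

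**Figure D4:**
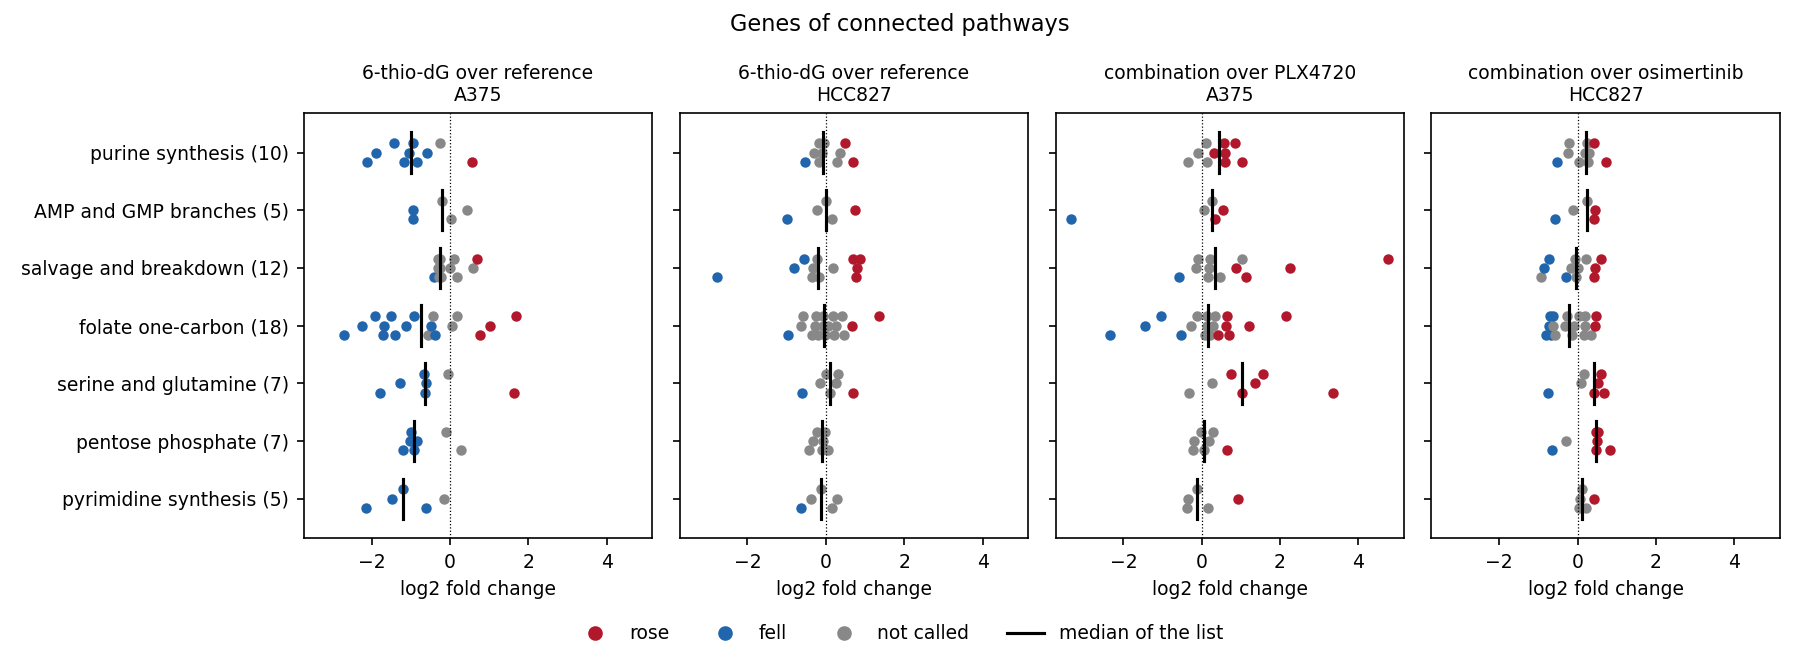
Log2 fold change (x axis) of each gene (points) in the purine synthesis list and in 6 connected lists (rows, with the number of genes listed in the table), with the median of each list as a vertical bar. In A375 after 6-thio-dG the medians of purine synthesis, pyrimidine synthesis, pentose phosphate, folate and serine genes lie at -0.63 or lower, and that of salvage and breakdown at -0.25.

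Neighbouring pathways were counted the same way, with no test of any list. The values of these lists are as deposited, with no trend over all genes removed. Downstream of inosine monophosphate, in A375 after 6-thio-dG, 2 of 5 genes of the AMP and GMP branches fell and 0 rose (median -0.21). Over all genes 33.7% fell and 31.3% rose in this comparison (65.0% either way). GMPS and IMPDH1, both of the GMP branch, were each at -0.95 in the authors' deposited table. Of 12 salvage and breakdown genes 1 rose and 1 fell (median -0.25), NT5C2, a nucleotidase, at 0.68 and HPRT1, which salvages guanine and hypoxanthine, at -0.41 in the authors' deposited table.

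Most listed genes of the pathway's suppliers, and of pyrimidine synthesis, fell in A375 after 6-thio-dG, where 33.7% of all genes fell and 31.3% rose. Of 18 folate one-carbon genes 11 fell and 3 rose (median -0.73), with thymidylate synthase (TYMS) at -2.69 and MTHFD1L, a mitochondrial folate enzyme, at -1.68 in the authors' deposited table. Of 7 pentose phosphate genes, which make ribose phosphate, 5 fell and 0 rose (median -0.91), with transketolase (TKT) at -1.20 in the authors' deposited table. Of 7 serine and glutamine genes 5 fell and 1 rose (median -0.63), with PHGDH, the entry to serine synthesis, at -1.77 and PSAT1, the step after it, at -1.28 in the authors' deposited table. In pyrimidine synthesis 4 of 5 genes fell and 0 rose (median -1.20), with CTPS1, CTP synthetase, at -2.15 and CAD, which starts that pathway, at -1.49 in the authors' deposited table.

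In HCC827 after 6-thio-dG, where 29.2% of all genes were called, the counts were 2 risen and 1 fallen of 18 folate genes, 0 and 0 of 7 pentose phosphate genes, 1 and 1 of 7 serine and glutamine genes, and 0 and 1 of 5 pyrimidine genes. Salvage and breakdown had 4 risen and 3 fallen of 12, with XDH, xanthine dehydrogenase, at -2.77 and PNP, purine nucleoside phosphorylase, at 0.80 in the authors' deposited table. The AMP and GMP branches had 1 risen and 1 fallen gene of 5. IMPDH1 rose in HCC827, at 0.75, and ADSS1, an adenylosuccinate synthetase of the AMP branch, fell, at -0.99 per the authors' deposited table.

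In the A375 combination the serine and glutamine list had 5 risen and 0 fallen of 7 (median 1.04), beside 31.2% and 29.3% of all genes. ASNS, asparagine synthetase, was at 3.35 and PSAT1 at 1.04 in the authors' deposited table. Folate genes were split, with 6 risen and 4 fallen of 18: MTHFD2, the mitochondrial counterpart of MTHFD1, was at 2.16 and SHMT1, the cytosolic serine hydroxymethyltransferase, at -2.33 in the authors' deposited table. Salvage and breakdown had 4 risen and 1 fallen of 12, with PNP at 2.26 and XDH at 4.76 in the authors' deposited table. Pentose phosphate genes had 1 risen and 0 fallen of 7, and pyrimidine synthesis 1 and 0 of 5. The AMP and GMP branches had 2 risen and 1 fallen of 5, with ADSS1 as the fallen gene, at -3.33 per the authors' deposited table.

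In the HCC827 combination the pentose phosphate list had 5 risen and 1 fallen of 7 (median 0.47), beside 17.3% and 17.9% of all genes, with PGLS at 0.82 in the authors' deposited table. The serine and glutamine list had 4 and 1 of 7 (median 0.41), folate 2 and 5 of 18 (median -0.21), and the AMP and GMP branches 2 and 1 of 5 (median 0.25). Salvage and breakdown had 3 and 3 of 12 (median -0.05), and pyrimidine synthesis 1 and 0 of 5 (median 0.12). PHGDH was at 0.68 in the authors' deposited table. This comparison had the steepest dependence on GC content (Spearman's rho 0.73 across genes, a description). The part of that trend in these counts was not tested.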

How the data were processed

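The labels describe poly-T selection of mRNA and a NEB Next Ultra RNA library kit. Per the submitters' processing notes, reads passed through FastQC, Trimmomatic and STAR with hg38; the sources used here give no version, counting method, annotation or test. The authors deposited 1 table of log2 fold changes, read as first-named arm over second-named arm. Its p-value and adjusted p-value columns were also deposited by the authors, per the file headers. Library depth is unknown.

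The members and lists were chosen with earlier results of these data known. Named genes are all members, up to 3 called genes of each list with the smallest p-values per comparison, MYC and ATF4, and genes that overlap or start head to head with a member; some genes the rule names are not reported here.

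From each fold change and p-value a standard error was implied under a two-sided normal test, and differences between comparisons were z-tested and adjusted by Benjamini-Hochberg over all genes whose p-values are not listed as 0. Intervals are 95%. Exonic GC content, length and span came from GENCODE 29, which matched 11796 of 11828 genes. Trends were removed by lowess over 0.3 of the genes (statsmodels 0.14.6, scipy 1.17.1). Alternatives were an adjusted p of 0.01, at least 2-fold, adjustment over the table's genes, both trend removals, and a t reading for the differences. That reading put a t distribution in place of the normal, with 4 degrees of freedom for each implied error. The difference was then tested on the degrees of freedom of both comparisons added together. The steps were also run on simulated data. For the difference test these were drawn from the implied errors, under the normal reading and with independent comparisons. That run could therefore not test those assumptions. The time course of 20 libraries and the targeted drugs against DMSO were not analysed here.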

Additional observations from a re-analysis of the deposited data

Results flagged for a closer look

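For 7 members the effect of 6-thio-dG alone differed between the lines by the z test of the difference, with A375 below HCC827, a direction found for 28.9% of all genes (55.1% either way). The differences in log2 fold change, A375 minus HCC827, were -2.12 for PRPS2, -1.83 for PFAS, -1.83 for MTHFD1, -1.10 for PRPS1, -1.07 for ADSL, -0.88 for PAICS and -0.68 for GART. For 5 members the effect of the combination over the targeted drug differed between the lines by the same test, a share of the 10 no larger than that of all genes (56.5%). These differences were 1.36 for PPAT, 1.25 for PAICS, 0.55 for GART, -0.57 for MTHFD1 and -0.58 for APRT. Once the GC trend was removed, GART (0.036) and PPAT (0.35) no longer passed for the combination and APRT turned to 0.42 without passing. PAICS was below HCC827 for 6-thio-dG alone and above it for the combination, with and without that trend.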

How the results depend on the processing

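No paired analysis was possible because the table holds no values per library, and leaving out each replicate in turn was not run for the same reason. Adjusting over the table's genes moved no call. At 2-fold, 5, 0, 1 and 0 members were called for 6-thio-dG in A375 and HCC827 and the combination in A375 and HCC827. At an adjusted p of 0.01, 1 was called for 6-thio-dG and 1 for the combination in HCC827, and 3 differed between the lines for the combination. With the GC trend removed 1 was called for the HCC827 combination, 3 differed between the lines for the combination, and the A375 median after 6-thio-dG was -1.17. The share of all genes passing at 2-fold, at an adjusted p of 0.01 or with trends removed was not computed. Counts of members under these settings, here and above, therefore have no share of all genes to be read against. The 6 enzymes of the pathway proper had a median of 0.58 in the A375 combination.

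Directions turned with the GC trend removed, and again with length and span removed too, for PPAT after 6-thio-dG in A375 (-0.29 and -0.24), APRT there (0.33 and 0.10), PFAS (0.14 and 0.13) and PRPS2 (-0.10 and -0.41, the second passing at an adjusted p of 0.016) in the A375 combination, and PPAT (0.14 and 0.13), PFAS (-0.022 and -0.0072) and PAICS (0.047 and 0.080) in the HCC827 combination. With the GC trend alone PRPS2 there was at 0.084. With all 3 trends MTHFD1 was at 0.033 for 6-thio-dG in HCC827. Differences that turned with the GC trend removed were PPAT (-0.75) and APRT (0.18) between lines for 6-thio-dG, PFAS (0.17), PRPS2 (-0.19) and APRT (0.42) between lines for the combination, and PAICS within HCC827 (0.15). Of these genes PPAT in A375 and HCC827, and APRT between lines for the combination, had passed as deposited. The t reading added 6 differences to those passing and kept each count within 1.5 times. The cause was not tested, and depth per library is unknown.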

Other observations

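Regulators of transcription were listed beside these genes. MYC, which activates many nucleotide synthesis genes, rose after 6-thio-dG in A375 (0.41, adjusted p = 0.017) in the authors' deposited table, where 8 of the 10 enzymes fell. It fell in HCC827 (-0.85, adjusted p = 7.16e-04) in the authors' deposited table. Set against the targeted drug, the combination had MYC at 0.91 in A375 and at -0.52 in HCC827 in the authors' deposited table. The part of MYC in the changes of the enzymes was not tested.

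ATF4, a stress factor that activates serine and one-carbon genes, rose in the A375 combination at 1.39 (adjusted p = 1.38e-34) and in the HCC827 combination at 0.38 in the authors' deposited table. After 6-thio-dG alone it was at 0.28 (adjusted p = 0.027) in A375 and at -0.29 (adjusted p = 0.21) in HCC827 in the authors' deposited table. E2F1, a driver of S-phase genes, was at -2.76 in A375 and 1.95 in HCC827 after 6-thio-dG alone in the authors' deposited table. MXD1, a repressor that competes with MYC for its partner MAX, stood at 2.04 in A375 and at -1.62 in HCC827 after 6-thio-dG alone in the authors' deposited table. Other partners of MAX moved in both directions, and were added here after their values were seen. After 6-thio-dG alone in A375, MXI1 (1.99) and MXD4 (0.61) rose, while MXD3 (-1.38) and MNT (-0.51) fell, in the authors' deposited table. In HCC827 MXD4 rose (0.52) in the authors' deposited table, and MXI1, MXD3 and MNT were not called. Of the 11 regulators listed, 6 rose and 5 fell after 6-thio-dG alone in A375, beside 31.3% and 33.7% of all genes (65.0% either way). After 6-thio-dG alone in HCC827, 2 rose and 2 fell, beside 14.8% and 14.4% of all genes (29.2% either way). The part of these regulators in the changes of the enzymes was not tested.

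PRPSAP1 and PRPSAP2, the proteins that associate with the phosphoribosyl pyrophosphate synthetases, were called apart: PRPSAP1 fell after 6-thio-dG in A375 (-0.51), and PRPSAP2 fell after 6-thio-dG in HCC827 (-0.60) and rose in the A375 combination (0.74) in the authors' deposited table.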
